A study of Mus musculus with 14 samples.

Results

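Livers without cullin 3 in their hepatocytes were compared between 2 diets. The comparison takes 7 of the 14 libraries of the study, chosen by their labels: the 4 KO libraries on Western diet (KO on WD) against the 3 KO libraries on control diet (KO on CD), over all genes. All mice were C57BL/6 carrying a floxed Cul3 gene. They ate their diet for 13 weeks, received an adeno-associated virus (AAV) and then ate the same diet for 5 more weeks. The virus was AAV-TBG-Cre in KO mice, in which the TBG promoter drives Cre recombinase in hepatocytes, and AAV-TBG-Null in WT mice. Cre thus acts in hepatocytes, while other liver cells keep their Cul3, and whole-liver RNA holds both. The WT libraries on Western diet (4) and on control diet (3) serve here to estimate the spread and to ask where the diet effect differed between genotypes. The sources used here give neither the composition of the diets nor the sex and age of the mice. No label says that every library came from its own animal, and p-values therefore reflect only how far these libraries spread, which may be technical.

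Cullin 3 is the scaffold of a family of ubiquitin ligases that mark proteins for destruction. Through the adaptor KEAP1 it holds down NRF2, the transcription factor of detoxification and antioxidant genes. A Western diet brings fat, sugar and cholesterol to the liver. Cholesterol arriving from the diet keeps SREBP2 in the endoplasmic reticulum, which lowers transcription of the cholesterol synthesis pathway, while oxysterols activate the LXR receptors, whose targets export sterols and include Srebf1, the gene of the main activator of fatty acid synthesis.

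The values were FPKM (fragments per kilobase of transcript and per fixed number of mapped fragments) from 3' tag sequencing, so each gene's level is set against its own level in other libraries, never against another gene's. Read totals are not known. If the commonest low value is that of 1 read, the KO on WD libraries held roughly 5623000 to 8364000 reads and the KO on CD libraries 3599000 to 6978000. Between 9585 and 9970 genes reached 1 FPKM in KO on WD libraries, against 8879 to 9220 in KO on CD libraries. In whole-tissue RNA, fewer cells of a type and less RNA per cell cannot be told apart. The libraries were split into 2 sets, a number fixed in advance, by the ratios that genes with single reads share. The share of genes at the commonest ratio had a median of 7.08% for pairs within set 1 and 4.78% within set 2. Between the sets the median was 2.63%. The ranges overlapped (3.01% to 11.8%, 2.02% to 18.1% and 1.40% to 3.82% in that order), so the split is not clean. KO on WD replicates 1, 2 and 4 belong to set 1, while KO on WD replicate 3 and all 3 KO on CD libraries belong to set 2. The sources used here do not say what the sets stand for, and for 3 of the 4 KO on WD libraries set and diet cannot be told apart within the genotype. The first principal component (30.1% of the variance) was -31.5 to -19.3 in KO on WD replicates 1, 2 and 4, 20.4 in KO on WD replicate 3 and 31.5 to 64.0 in KO on CD. A second mark, a placeholder value in 1 row of the table, follows the sets except in KO on WD replicates 3 and 4, which carry each other's mark. Results are therefore given on groups alone and many of them again with the set of the library as a term of the fit. A gene given on groups alone only is not to be taken as having passed with the set.

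Cul3 itself (mm10, chr1:80264923-80340480, minus strand) measured 24.3, 26.6, 18.5 and 24.3 FPKM in KO on WD, against 18.3, 15.4 and 11.3 FPKM in KO on CD. The log2 fold change of Cul3, 0.62 ± 0.31 SE, did not pass (limma adjusted p = 0.208). With the library set as a term it was 0.02. A 3' tag can lie outside the deleted exons, which no source used here names, so Cul3 checks neither the deletion nor the labels.

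On the Western diet, Cul3-deficient livers held less RNA of cholesterol synthesis enzymes, of the lipoprotein component Apom, of the methyltransferases Gnmt and Pemt, and of several amino acid enzymes. They held more RNA of Oxct1, Serpina12, Gadd45a and the sphingosine 1-phosphate receptor S1pr1. In the fit on groups alone, which uses limma and has 1 mean per group, 693 of 10870 genes passed (adjusted p under 0.05, 6.38%), 416 higher (3.83%) and 277 lower (2.55%) in KO on WD. The 4 KO on WD libraries did not overlap the 3 KO on CD libraries for 2922 genes (26.9%), of which 1794 were above (16.5%) and 1128 below (10.4%). With the library set as a term 38 genes passed (0.35%), 14 higher (0.129%) and 24 lower (0.221%). Of these, 37 (0.34%) passed in both fits in the same direction, 14 higher and 23 lower, and 32 of the 37 kept the call with any 1 of the 14 libraries left out. With the sets read from the placeholder instead, 28 genes passed, 22 of the 37 among them.

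The number of calls depended on single libraries. It fell to 115, 325 and 151 without KO on CD replicates 1, 2 and 3, to 282, 143 and 196 without KO on WD replicates 1, 2 and 4, and to 406 and 416 without WT on CD replicates 3 and 4. It grew to 1116 without KO on WD replicate 3 and to 1765 without WT on WD replicate 2. The share of calls that were higher was 60.0% on groups alone, 42.0% with quantile normalization and 32.3% with each library centred on its median. The median log2 fold change of all genes tested was 0.09 on groups alone, -0.08 with quantile normalization and -0.10 with median centring.

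**Figure D1:**
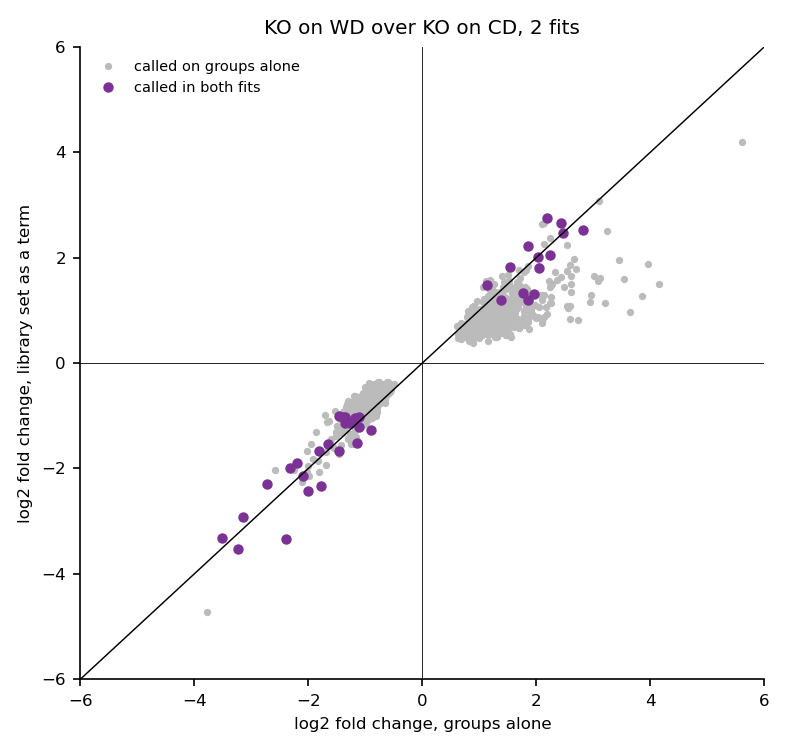
Log2 fold change of each of the 693 genes called on groups alone, KO on WD over KO on CD, on groups alone (x axis) and with the set added as a term (y axis). Purple points are the 37 genes called in both fits, and grey points far below the diagonal on the right, such as Pfn1 at 4.15 and 1.51, shrank with the set as a term.

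Several of the highest values on groups alone were among the genes that shrank. For 71 of the 693 genes the log2 fold change with the set as a term was at most 0.5 times that on groups alone. Pfn1, which binds actin monomers, averaged 34.7 ± 23.6 FPKM in KO on WD and 0.512 ± 0.455 FPKM in KO on CD (SD, n = 4 and 3). Pfn1 thus stood at 4.15 on the log2 scale on groups alone (limma adjusted p = 0.0390) and 1.51 with the set (adjusted p = 0.242). Gspt1, a translation termination factor, averaged 127 ± 69.1 FPKM in KO on WD and 6.10 ± 1.59 FPKM in KO on CD, with values of 3.85 and 1.27 in the same order (adjusted p = 0.0414 and 0.176). Both calls ended without each of 9 libraries (adjusted p up to 0.122 for Pfn1 and 0.118 for Gspt1, without KO on CD replicate 3). Both genes were chosen after their values were seen. 

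Cholesterol synthesis enzymes were lower on the Western diet. Cyp51, the sterol 14-alpha-demethylase of the pathway (chr5:4081145-4104746, minus strand), measured 12.7, 16.7, 13.2 and 9.35 FPKM in KO on WD, against 75.0, 37.2 and 67.9 FPKM in KO on CD. Every KO on WD library lay below every KO on CD library. On groups alone Cyp51 fell by 2.09 ± 0.25 SE on the log2 scale (limma adjusted p = 0.00143), and the set as a term gave -2.14 (adjusted p = 0.0156). Of 23 tested members of the cholesterol synthesis and uptake list, 8 fell and 0 rose on groups alone, and 1 fell, Cyp51, with the set as a term. The median of the list was -0.85, and -0.77 with the set, against 0.09 and 0.07 over all genes. In 10 of the 23 the groups did not overlap with KO on WD below, against 10.4% of all genes. A log2 fold change under 0 was found in 21 of the 23. Here and for each list below, 3.83% of all genes tested rose on groups alone and 2.55% fell. With quantile normalization and with median centring 10 and 12 members fell and 0 rose.

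The members that fell span the pathway. Mvk and Mvd, mevalonate kinase and mevalonate diphosphate decarboxylase of the early steps, fell by 1.22 and 2.11 on the log2 scale (limma adjusted p = 0.0396 and 0.0214). Msmo1, the methylsterol monooxygenase that follows Cyp51, measured 26.1, 37.9, 24.9 and 17.7 FPKM in KO on WD, against 178, 54.5 and 127 FPKM in KO on CD, and fell by 2.02 (adjusted p = 0.00632). The late-step enzymes Tm7sf2, Nsdhl and Ebp fell by 1.86, 1.25 and 0.85 (adjusted p = 0.0342, 0.0249 and 0.0259). Acat2, the cytosolic thiolase that makes acetoacetyl-CoA, fell by 1.61 (adjusted p = 0.00564). KO on CD replicate 2 was the lowest KO on CD library for Cyp51, Msmo1, Mvd and Acat2. With the set as a term the adjusted p was 0.056 for Msmo1, 0.0581 for Nsdhl, 0.0701 for Acat2, 0.122 for Mvd and 0.234 to 0.312 for Mvk, Tm7sf2 and Ebp. Leaving out KO on CD replicate 1 or 3 ended the calls of Mvd (adjusted p = 0.0822 and 0.0844), Nsdhl (0.0920 and 0.0617), Ebp (0.0645 and 0.0978), Tm7sf2 (0.114 and 0.118) and Mvk (0.0791 and 0.132). The same calls also ended without 2 or more of the KO on WD libraries, and that of Mvk without each of 9 libraries. Cyp51, Msmo1 and Acat2 kept theirs.

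**Figure D2:**
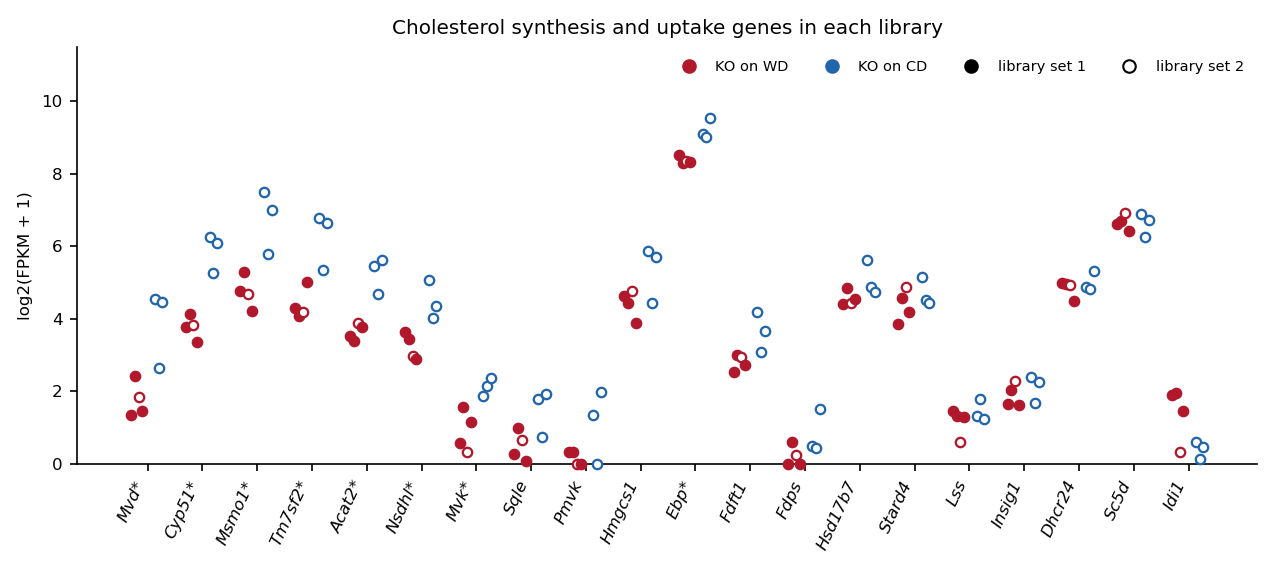
Levels of 20 tested members of the cholesterol synthesis and uptake list, as log2(FPKM + 1), in each KO on WD library (red, left) and KO on CD library (blue, right), ordered by log2 fold change. Asterisks mark the 8 genes called on groups alone, and the red points sit below the blue ones for most genes on the left, while Sc5d and Idi1 on the right do not show this.

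Other members missed the threshold. Sqle, squalene epoxidase, overlapped between the diets (-0.99, limma adjusted p = 0.0588). Insig1, which retains SREBP proteins in the endoplasmic reticulum, had a log2 fold change of -0.21 (adjusted p = 0.694).

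The promoters of 4 of the enzymes that fell are shown because SREBP2 acts at such promoters together with the factor NF-Y, whose known letters are the CCAAT box. Each run is the 250 bases before the RefSeq start of the gene on GRCm38.p6, read 5′ to 3′ on the gene's strand, and capitals mark CCAAT or its complement ATTGG.
Cyp51, chr5:4104698-4104947, minus strand: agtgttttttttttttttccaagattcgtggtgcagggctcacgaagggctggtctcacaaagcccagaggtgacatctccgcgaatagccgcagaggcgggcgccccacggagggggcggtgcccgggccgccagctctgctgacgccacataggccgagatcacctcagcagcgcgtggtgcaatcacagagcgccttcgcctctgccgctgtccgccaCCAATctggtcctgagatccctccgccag
Acat2, chr17:12960726-12960975, minus strand: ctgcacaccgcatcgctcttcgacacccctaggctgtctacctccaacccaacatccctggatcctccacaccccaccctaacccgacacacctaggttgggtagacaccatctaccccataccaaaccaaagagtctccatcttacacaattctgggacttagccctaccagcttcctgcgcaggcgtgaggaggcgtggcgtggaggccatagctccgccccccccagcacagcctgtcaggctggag
Mvd, chr8:122443423-122443672, minus strand: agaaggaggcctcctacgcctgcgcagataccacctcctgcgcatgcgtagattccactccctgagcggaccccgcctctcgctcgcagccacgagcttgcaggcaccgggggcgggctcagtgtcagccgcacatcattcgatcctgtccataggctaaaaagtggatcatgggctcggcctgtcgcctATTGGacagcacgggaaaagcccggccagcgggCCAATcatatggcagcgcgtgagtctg
Nsdhl, chrX:72918271-72918520, plus strand: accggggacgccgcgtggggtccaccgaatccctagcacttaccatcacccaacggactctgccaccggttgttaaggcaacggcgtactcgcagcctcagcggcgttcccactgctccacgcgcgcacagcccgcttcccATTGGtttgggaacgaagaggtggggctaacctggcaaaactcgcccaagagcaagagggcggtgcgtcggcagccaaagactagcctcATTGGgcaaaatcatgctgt
The Cyp51 window holds 1 CCAAT box, those of Mvd and Nsdhl 2 each, and that of Acat2 0. Both strands were searched, over 250 bases. Of the cholesterol list 17 genes matched a RefSeq promoter, and 16 of them held the box (94.1%), against 37.5% of 27025 genes. A spelling of the sterol regulatory element, TCACNCCAC, was in 1 of the 17 (5.9%), against 1.2% of all genes, and in none of the 4 windows above. The list came from textbook knowledge of the pathway, so a high share of the box could be foreseen. It also holds genes that did not fall, and the 27025 genes include many that were not tested here. These matches are letters in a window and say nothing of binding in these livers. The cause of the falls was not tested.

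Among lipoprotein genes, Apom fell and Apoa4 rose. Apom encodes apolipoprotein M, the HDL protein that carries sphingosine 1-phosphate in plasma (chr17:35128997-35132050, minus strand). It measured 29.5, 27.1, 36.4 and 29.6 FPKM in KO on WD, against 298, 308 and 234 FPKM in KO on CD. The groups stood far apart and the 4 KO on WD values were close together. Apom fell by 3.15 ± 0.24 SE on the log2 scale (limma adjusted p = 4.48e-05), and the set as a term gave -2.92 (adjusted p = 0.000689). Apoa4, an apolipoprotein of triglyceride-rich particles, measured 10.4, 20.6, 18.3 and 13.5 FPKM in KO on WD, against 4.43, 4.94 and 4.35 FPKM in KO on CD (1.54 ± 0.27 SE, adjusted p = 0.0112, and 0.0307 with the set, but 0.087 with the sets read from the placeholder). Of 16 tested apolipoprotein and assembly genes 1 rose and 2 fell, the third gene being Apoa5, a modulator of plasma triglyceride (-0.81, adjusted p = 0.0326, and 0.0756 with the set). The call of Apoa5 ended without any 1 of the KO on CD replicates or KO on WD replicates 1, 2 and 4 (adjusted p of 0.0592 to 0.0972). The median of the list was -0.10, and 0.07 with quantile normalization.

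A receptor of sphingosine 1-phosphate and a ceramidase were higher. S1pr1, the receptor through which sphingosine 1-phosphate acts on endothelium and lymphocytes, measured 53.1, 54.9, 39.6 and 59.1 FPKM in KO on WD, against 13.8, 17.9 and 11.6 FPKM in KO on CD. KO on WD replicate 3 was the lowest of the 4 and still above all KO on CD libraries (1.78 ± 0.23 SE, limma adjusted p = 0.00176, and 1.33 with adjusted p = 0.0156 with the set). Acer3, an alkaline ceramidase that frees sphingosine from ceramide, measured 5.82, 8.68, 4.33 and 7.01 FPKM in KO on WD, against 0.832, 1.23 and 0.591 FPKM in KO on CD. It rose by 1.96 ± 0.31 SE (adjusted p = 0.00581, and 0.0453 with the set, but 0.108 with the sets read from the placeholder). On groups alone the log2 fold changes in WT livers were 0.30 for S1pr1 and -0.24 for Acer3. The difference of the diet effects between the genotypes did not pass (limma adjusted p = 0.061 and 0.0548). With the set as a term this difference was smaller for both genes (adjusted p = 0.817 and 0.805). In WT on WD, S1pr1 measured 17.5 and 19.2 FPKM in set 2 and 28.5 and 31.3 FPKM in set 1. Acer3 measured 1.67 and 1.30 FPKM in set 2 and 4.55 and 4.01 FPKM in set 1. WT on CD, all of set 1, averaged 18.9 FPKM for S1pr1 and 3.27 FPKM for Acer3. Endothelial markers are given with the cell type markers below.

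Bile acid and sterol transport genes changed singly. Slco1a4, an organic anion transporter of the hepatocyte that takes up bile acids (chr6:141805440-141856199, minus strand), measured 5.10, 6.75, 5.71 and 12.6 FPKM in KO on WD, against 81.1, 69.9 and 74.9 FPKM in KO on CD. All 4 KO on WD libraries lay far below the KO on CD libraries. Slco1a4 fell by 3.23 ± 0.27 SE on the log2 scale (limma adjusted p = 4.80e-05), and the set as a term gave -3.52 (adjusted p = 0.000539). Of 21 tested bile acid genes 3 fell and 0 rose, with a median of -0.24, and -0.07 with the set. The others that fell were Slc27a5, which activates bile acids for conjugation (-0.77, adjusted p = 0.0129, and 0.117 with the set), and Cyp8b1, the 12-alpha-hydroxylase that sets cholic acid output (-1.23, adjusted p = 0.0478, and 0.334 with the set). Cyp8b1 measured 283, 116, 143 and 122 FPKM in KO on WD, against 351, 417 and 332 FPKM in KO on CD. Its call ended without each of 9 libraries (adjusted p up to 0.122, without KO on WD replicate 2). That of Slc27a5 ended when KO on CD replicate 1 was left out (adjusted p = 0.0569). Cyp7a1, the rate-limiting enzyme of bile acid synthesis, measured 43.6, 19.9, 25.8 and 28.2 FPKM in KO on WD, against 16.7, 53.4 and 14.8 FPKM in KO on CD. These groups overlapped widely (0.24, adjusted p = 0.784).

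Of 11 tested LXR targets and sterol efflux genes 2 rose and 0 fell. They were Abca1, which loads cholesterol onto HDL (27.5 ± 3.10 FPKM in KO on WD and 13.4 ± 2.26 FPKM in KO on CD, SD, n = 4 and 3), and Mylip, an E3 ubiquitin ligase that LXR induces. Their log2 fold changes were 0.99 and 1.26 (limma adjusted p = 0.0276 and 0.0491). With the set as a term they were 0.64 and 0.72 (adjusted p = 0.261 and 0.436). Without KO on CD replicate 3 the adjusted p was 0.101 for Abca1 and 0.151 for Mylip, and both calls also ended without KO on CD replicate 1 and KO on WD replicates 2 and 4, that of Mylip without 10 libraries in all. Abcg5, a subunit of the canalicular sterol transporter, measured 50.4, 52.1, 69.3 and 67.8 FPKM in KO on WD, against 61.8, 63.3 and 76.9 FPKM in KO on CD (-0.17, adjusted p = 0.544).

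The methyltransferases Gnmt and Pemt were lower on the Western diet. Gnmt, glycine N-methyltransferase, which disposes of surplus S-adenosylmethionine (chr17:46725664-46729168, minus strand), measured 509, 351, 744 and 648 FPKM in KO on WD, against 3551, 3481 and 3803 FPKM in KO on CD. No KO on WD value came near a KO on CD value. Gnmt fell by 2.73 ± 0.30 SE on the log2 scale (limma adjusted p = 0.000861), and the set as a term gave -2.29 (adjusted p = 0.00884). Pemt, the methyltransferase that makes phosphatidylcholine from phosphatidylethanolamine, measured 519, 445, 529 and 514 FPKM in KO on WD, against 1060, 1074 and 1128 FPKM in KO on CD. Both groups were tight and Pemt had a log2 fold change of -1.12 (adjusted p = 0.00171, and 0.0234 with the set).

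Of 25 tested urea cycle and amino acid genes 6 fell and 0 rose, and 3 fell with the library set as a term. In 12 the groups did not overlap with KO on WD below, against 10.4% of all genes. The median was -0.47 on groups alone and -0.46 with the set. The 3 that passed in both fits were Got1, Hpd and Asl. Got1, the cytosolic aspartate aminotransferase, measured 53.5, 55.6, 63.3 and 82.5 FPKM in KO on WD, against 307, 292 and 186 FPKM in KO on CD (-2.01, limma adjusted p = 0.00491). Hpd, the dioxygenase of tyrosine breakdown, measured 924, 692, 950 and 984 FPKM in KO on WD, against 2042, 2103 and 2230 FPKM in KO on CD (-1.27, adjusted p = 0.00143). Asl, argininosuccinate lyase of the urea cycle, fell by 1.14 (adjusted p = 0.0144), and its call ended without KO on CD replicates 1 and 3 (adjusted p = 0.0520 and 0.0568). The histidine ammonia-lyase Hal, the ornithine carrier Slc25a15 and Sdsl, a relative of serine dehydratase, fell by 0.74, 0.55 and 1.01 on groups alone (adjusted p = 0.0344, 0.0475 and 0.0491). Those 3 calls ended without 6, 10 and 9 single libraries, at adjusted p up to 0.0919 (without KO on CD replicate 1), 0.124 (without KO on WD replicate 2) and 0.133 (without KO on CD replicate 1). Other urea cycle enzymes had log2 fold changes of -0.26 (Cps1), 0.23 (Otc), -0.51 (Ass1) and -0.26 (Arg1), and none of these passed.

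2 further amino acid genes outside the list passed in both fits. Gcat, which breaks down threonine to glycine, averaged 26.5 ± 7.75 FPKM in KO on WD and 73.3 ± 10.2 FPKM in KO on CD (SD, n = 4 and 3), or -1.46 as log2 fold change (limma adjusted p = 0.00564). Slc38a4, a transporter of neutral and cationic amino acids, averaged 88.9 ± 15.5 FPKM in KO on WD and 192 ± 16.4 FPKM in KO on CD, a log2 fold change of -1.12 (adjusted p = 0.00564). With the sets read from the placeholder the adjusted p was 0.0938 for Gcat and 0.0703 for Slc38a4. Slc13a2, a sodium-coupled transporter of citrate cycle acids, measured 2.56, 1.62, 3.40 and 1.12 FPKM in KO on WD, against 16.4, 15.8 and 8.42 FPKM in KO on CD (-2.20, adjusted p = 0.00153, and 0.0293 with the set).

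**Figure D3:**
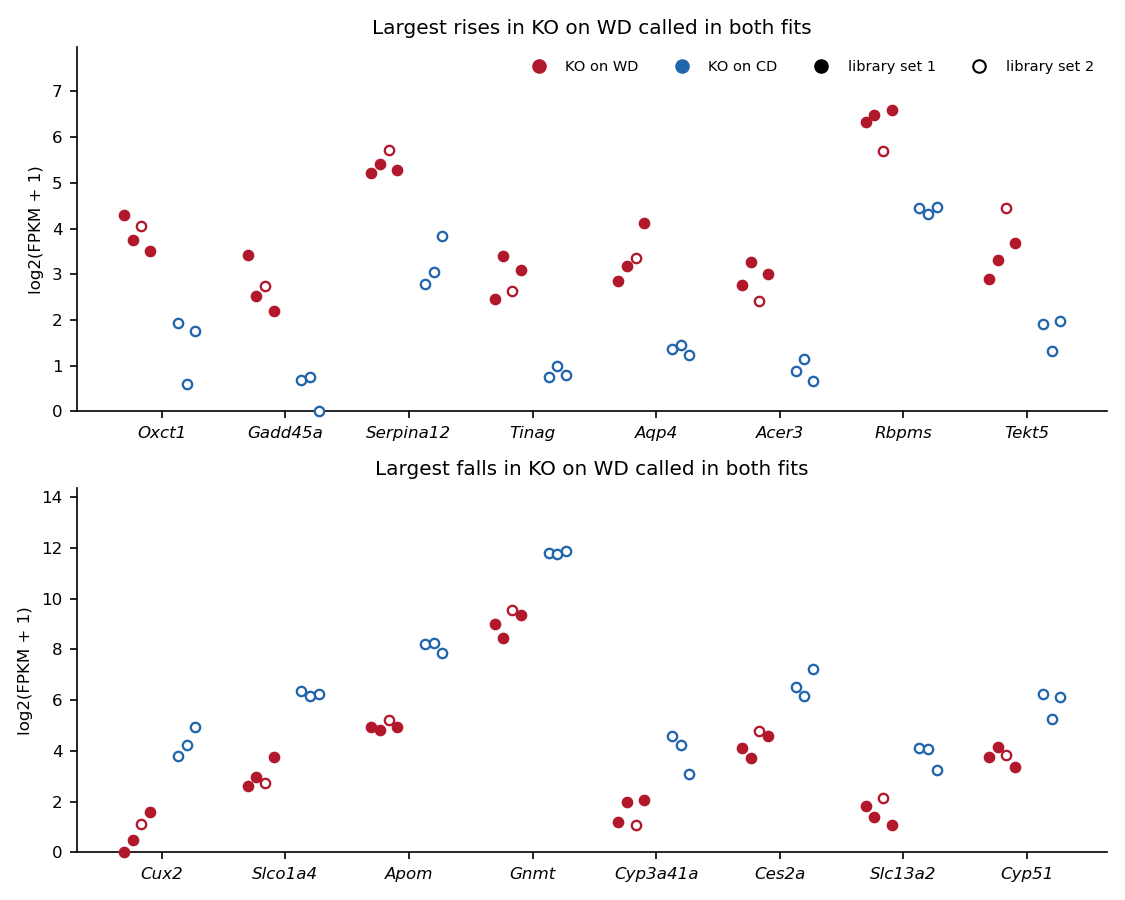
Level, as log2(FPKM + 1), of the 8 largest rises (top) and 8 largest falls (bottom) among genes called in both fits that reached 5 FPKM on average in the higher group, leaving out unnamed gene models such as Gm4963, in each KO on WD library (red, left) and KO on CD library (blue, right). Open circles are libraries of set 2, and the 4 red points of each gene lie wholly above (top) or below (bottom) its 3 blue points.

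Among the larger rises that passed in both fits were genes of unrelated functions. Oxct1, the transferase that lets tissues burn ketone bodies and that hepatocytes normally hold at a low level (chr15:4026383-4155344, plus strand), measured 18.6, 12.5, 15.6 and 10.3 FPKM in KO on WD, against 2.82, 0.521 and 2.39 FPKM in KO on CD. Every KO on WD library was above every KO on CD library. Oxct1 rose by 2.47 ± 0.31 SE on the log2 scale (limma adjusted p = 0.00143), and the set as a term gave 2.46 (adjusted p = 0.0185). Gadd45a, a stress-induced regulator of growth arrest, measured 9.69, 4.79, 5.75 and 3.56 FPKM in KO on WD, and in KO on CD 0.614 and 0.682 FPKM with replicate 3 listed at 0. It rose by 2.24 ± 0.31 SE (adjusted p = 0.00306, and 0.0453 with the set). Serpina12, which encodes the secreted serpin vaspin, measured 36.2, 41.6, 51.7 and 38.0 FPKM in KO on WD, against 5.87, 7.32 and 13.3 FPKM in KO on CD (2.18 ± 0.33 SE, adjusted p = 0.00507, and 0.00433 with the set).

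The other named rises were Tinag, a basement membrane protein known from kidney (2.04), the water channel Aqp4 (2.02), the RNA-binding protein Rbpms (1.86) and the tektin Tekt5 of the sperm tail (1.85). Tinag averaged 6.70 ± 2.31 FPKM in KO on WD and 0.811 ± 0.164 FPKM in KO on CD (SD, n = 4 and 3; limma adjusted p = 0.00105). Aqp4 measured 6.23, 8.04, 9.27 and 16.5 FPKM in KO on WD, against 1.58, 1.74 and 1.37 FPKM in KO on CD (adjusted p = 0.00466). Rbpms averaged 78.6 ± 19.8 FPKM in KO on WD and 20.3 ± 1.16 FPKM in KO on CD, with KO on WD replicate 3 the lowest of its group at 50.9 FPKM. With the set as a term the adjusted p of these 4 ran from 0.0156 (Tinag and Tekt5) to 0.0453 (Aqp4). With the sets read from the placeholder the calls of Gadd45a, Tekt5 and Rbpms ended (adjusted p = 0.0620, 0.0757 and 0.108). Frrs1, a ferric reductase, averaged 15.0 ± 2.14 FPKM in KO on WD and 5.20 ± 1.37 FPKM in KO on CD (1.38, adjusted p = 0.00348, and 0.0488 with the set, but 0.0655 with the placeholder sets).

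Genes of fat synthesis and storage that passed were all higher on the Western diet, but none of them passed with the library set as a term. Of 19 tested fatty acid and triglyceride synthesis genes 3 rose and 0 fell on groups alone, where 3.83% of all genes rose. The list median was 0.24, and with median centring 2 rose and 1 fell. Scd1, the stearoyl-CoA desaturase, measured 455, 738, 937 and 881 FPKM in KO on WD, against 79.1, 37.1 and 195 FPKM in KO on CD. The groups stood apart, Scd1 rose by 3.11 ± 0.46 SE (limma adjusted p = 0.00466), and the value with the set was 3.08 (adjusted p = 0.0504). Srebf1 measured 41.0, 35.7, 16.0 and 46.6 FPKM in KO on WD, against 3.57, 3.83 and 1.73 FPKM in KO on CD. Its value was 3.09 (adjusted p = 0.0259) on groups alone and 1.56 (adjusted p = 0.216) with the set. Its lowest KO on WD library was replicate 3 of set 2, and in WT livers on the Western diet it measured 18.2 and 4.22 FPKM in set 2 and 54.0 and 64.9 FPKM in set 1. The elongase Elovl6 rose by 1.06 (adjusted p = 0.0466, and 0.365 with the set). Fasn, fatty acid synthase, averaged 9.47 ± 2.78 FPKM in KO on WD and 5.52 ± 2.30 FPKM in KO on CD, and its groups overlapped (0.72, adjusted p = 0.109). The call of Srebf1 ended without any 1 of the KO libraries other than KO on WD replicate 3 (adjusted p up to 0.0924, without KO on CD replicate 3). That of Elovl6 ended without 11 of the 14 libraries (up to 0.115, without KO on CD replicate 2), while Scd1 kept its call.

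Of 18 tested lipid droplet and fat storage genes 4 rose and 0 fell on groups alone, where 3.83% of all genes rose. The list median was 0.42, and with median centring 4 rose and 1 fell. Cd36, a fatty acid uptake receptor, measured 68.9, 60.1, 50.7 and 71.6 FPKM in KO on WD, against 11.6, 14.7 and 29.0 FPKM in KO on CD (1.80, limma adjusted p = 0.0116, and 0.131 with the set). Lpl, lipoprotein lipase, rose by 2.27 (adjusted p = 0.0193), Fabp4, a fatty acid binding protein of adipocytes and macrophages, by 2.10 (adjusted p = 0.0449) and the droplet coat protein Plin3 by 1.41 (adjusted p = 0.0309). With the set as a term their adjusted p ran from 0.194 to 0.416. Omitting KO on CD replicate 1 ended all 4 calls (adjusted p = 0.0520 for Cd36, 0.0678 for Lpl, 0.10 for Fabp4 and 0.0804 for Plin3). KO on CD replicate 3 (0.0640, 0.151 and 0.118) and KO on WD replicate 2 (0.0599, 0.101 and 0.0737) each ended those of Lpl, Fabp4 and Plin3. Plin2, the main droplet protein of hepatocytes, averaged 67.6 ± 26.1 FPKM in KO on WD and 63.1 ± 5.88 FPKM in KO on CD (0.03, adjusted p = 0.962). Cidec, which enlarges droplets, measured 4.02, 3.23, 15.0 and 3.90 FPKM in KO on WD, against 0.556, 3.34 and 0.185 FPKM in KO on CD, and overlapped (adjusted p = 0.0722).

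Igfbp1, an insulin-suppressed binding protein, fell by 1.12 on the log2 scale (limma adjusted p = 0.0474, and 0.213 with the set), but its call ended without each of 10 libraries (adjusted p up to 0.147, without KO on CD replicate 1). Of 21 tested genes of glycolysis, gluconeogenesis and glycogen 1 rose and 1 fell, a share near the background. Of 25 tested fatty acid oxidation and PPAR alpha targets 1 rose and 0 fell, a share near the background as well. It was Vnn1, a pantetheinase that PPAR alpha induces (15.5 ± 2.85 FPKM in KO on WD and 1.88 ± 0.858 FPKM in KO on CD, SD, n = 4 and 3, adjusted p = 0.0144, and 0.149 with the set). Without KO on CD replicate 1 its adjusted p was 0.0608. Fgf21, the fasting hormone of the liver, was listed at 0 in all 7 libraries. All 9 mitochondrially encoded transcripts looked up were at 0 in all 7 libraries too. Here and below, a listed 0 may therefore mean a gene that was not measured rather than one without RNA.

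Sex-biased and drug metabolism genes fell in part. Cux2, a homeobox factor that female mouse livers express (chr5:121856366-122050102, minus strand), was listed at 0 in KO on WD replicate 1 and measured 0.407, 1.18 and 1.98 FPKM in the other KO on WD libraries, against 12.8, 17.8 and 29.5 FPKM in KO on CD. The 2 groups stood far apart. Cux2 fell by 3.52 ± 0.34 SE on the log2 scale (limma adjusted p = 0.000212), and the set as a term gave -3.32 (adjusted p = 0.00562). Of 10 tested female-biased genes 4 fell and 0 rose, 3 with the set as a term, and the median was -0.59. Cyp17a1, a steroid hydroxylase, measured 8.76, 8.24, 8.07 and 12.3 FPKM in KO on WD, against 35.3, 35.1 and 32.3 FPKM in KO on CD (-1.79, adjusted p = 0.0165, and 0.0183 with the set). Without KO on CD replicates 1 and 3 and KO on WD replicate 2 its adjusted p was 0.0601, 0.0522 and 0.0518. Cyp3a41a and Cyp3a44 fell by 2.40 and 1.07 (adjusted p = 0.0336 and 0.0296), and as close paralogs their reads cannot be assigned with certainty. The Cyp3a41a call ended without KO on CD replicates 1 and 2 and KO on WD replicates 1, 2 and 4 (adjusted p of 0.0604 to 0.112), as did that of Cyp3a44 (0.0556 to 0.104). With the sets read from the placeholder the calls of Cyp17a1 and Cyp3a41a ended (adjusted p = 0.0769 and 0.144). Of 21 tested male-biased genes 1 rose, Cyp4a12a, and 1 fell, Susd4, a share near the background.

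Of 19 tested drug-metabolising P450 genes 4 fell and 0 rose, with a median of -0.33, and 1 passed with the set as a term. This was Cyp2c55, at 0.604, 0.194, 0.677 and 0.157 FPKM in KO on WD, against 3.82, 2.49 and 3.91 FPKM in KO on CD (-1.65, limma adjusted p = 0.00143, and 0.0263 with the set). Cyp2c29, Cyp2c70 and Por, the reductase that feeds electrons to P450 enzymes, fell by 1.16, 0.83 and 1.25 (adjusted p = 0.0363, 0.0457 and 0.0377, and 0.117 to 0.399 with the set). Their calls ended without KO on CD replicates 1 and 3 and KO on WD replicate 2, at adjusted p up to 0.10, 0.135 and 0.122, and without 3 or more other libraries each. Ces2a, a liver carboxylesterase, measured 16.3, 12.2, 26.7 and 23.1 FPKM in KO on WD, against 89.9, 70.3 and 147 FPKM in KO on CD (-2.32, adjusted p = 0.00184, and 0.0341 with the set). Gstt3, a theta-class glutathione transferase, averaged 64.6 ± 17.9 FPKM in KO on WD and 226 ± 40.5 FPKM in KO on CD (-1.82, adjusted p = 0.00143, and 0.0207 with the set).

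NRF2 targets, the genes that loss of cullin 3 releases, were split. Of 30 tested, 2 rose and 1 fell on groups alone and none passed with the library set as a term. Their median was 0.23 on groups alone and 0.05 with median centring. Gclc, the rate-limiting enzyme of glutathione synthesis, measured 330, 237, 170 and 255 FPKM in KO on WD, against 97.6, 111 and 79.6 FPKM in KO on CD (1.33, limma adjusted p = 0.0116, and 0.123 with the set). Pgd of the pentose phosphate pathway rose by 1.16 (adjusted p = 0.0130). The glutathione transferase Gstm2 fell by 1.24 (adjusted p = 0.0214), its call ended without KO on CD replicates 1 and 3 and KO on WD replicates 1 and 2 (adjusted p of 0.0510 to 0.0805), and reads of the Gstm paralogs cannot be assigned with certainty. Nqo1, a quinone reductase often used to read NRF2, measured 50.2, 30.5, 33.4 and 48.0 FPKM in KO on WD, against 24.6, 29.5 and 17.4 FPKM in KO on CD (0.74, adjusted p = 0.106). Of 8 tested genes of Cul3, Keap1, Nrf2 and partners none passed.

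In mitochondria and the endoplasmic reticulum, single genes moved. Of 23 tested respiratory chain subunits 3 fell and 0 rose, with a median of 0.09 that was -0.10 with median centring. Ndufv1, a core subunit of complex I, measured 709, 606, 950 and 852 FPKM in KO on WD, against 1998, 1874 and 2018 FPKM in KO on CD (-1.35, limma adjusted p = 0.00348, and 0.0336 with the set, but 0.0655 with the sets read from the placeholder). Pptc7, a mitochondrial phosphatase, averaged 13.8 ± 2.14 FPKM in KO on WD and 39.7 ± 7.78 FPKM in KO on CD (SD, n = 4 and 3; -1.46, adjusted p = 0.00143, and 0.00433 with the set). Of 22 tested genes of the unfolded protein and integrated stress response 4 rose and 1 fell on groups alone, and none passed with the set. Besides the isomerase Pdia6 and the transcription factor Atf3, the chaperone Hsp90b1 and the secreted factor Manf rose by 1.06 and 2.71 (adjusted p = 0.0160 and 0.0144), while Asns, asparagine synthetase, fell by 2.01 (adjusted p = 0.0259). These calls ended without 1 library, those of Manf and Hsp90b1 when KO on CD replicate 1 (adjusted p = 0.0520 and 0.0627) or 3 (0.0563 and 0.0531) was left out and that of Asns without KO on CD replicate 2 (0.0682) or KO on WD replicates 2 and 4 (0.0686 and 0.0570).

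Markers of cells other than hepatocytes passed in some lists and not in others. Over all genes tested, 3.83% were called higher and 2.55% lower on groups alone. Of all genes tested, 56.3% had a log2 fold change above 0 on groups alone, 44.6% with quantile normalization and 43.2% with median centring. All 15 tested Kupffer cell and macrophage markers had a log2 fold change above 0, with a median of 0.76, also with quantile normalization and median centring, yet none passed on groups alone. The summed FPKM of all 16 listed markers of these cells was 217 to 407 in KO on WD and 118 to 265 in KO on CD, so the libraries overlapped. Cd68, a lysosomal macrophage marker, measured 21.9, 33.3, 30.3 and 19.7 FPKM in KO on WD, against 7.52, 10.3 and 23.4 FPKM in KO on CD (1.01, limma adjusted p = 0.0684). Of 6 tested lymphocyte and neutrophil markers 1 rose, Ptprc, the pan-leukocyte gene of CD45 (11.3 ± 4.82 FPKM in KO on WD and 2.24 ± 0.381 FPKM in KO on CD, SD, n = 4 and 3, adjusted p = 0.0222, and 0.226 with the set). Its call ended without any 1 of the KO on CD replicates or KO on WD replicate 2 (adjusted p of 0.0575 to 0.0669). Summed lymphocyte and neutrophil markers were 160 to 411 FPKM in KO on WD and 68.3 to 101 FPKM in KO on CD, and of the 18 listed Nkg7 and Cd79a were at 0 in all 7 libraries. Trem2 and Gpnmb, markers of lipid-associated macrophages, were under 1 FPKM in all 7 libraries, and of 7 tested recruited macrophage markers none passed. On groups alone 6 of these 7 had a log2 fold change above 0, but 3 of 7 with quantile normalization or median centring, where their median was -0.11 and -0.06.

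Of 9 tested endothelial markers none passed, and 7 had a log2 fold change above 0 on groups alone and 5 with median centring. The sum of all 12 listed endothelial markers was 131 to 241 FPKM in KO on WD and 143 to 203 FPKM in KO on CD. Of 14 tested extracellular matrix and stellate cell genes 3 rose, the collagens Col1a2 (1.27) and Col3a1 (1.63) and the retinol-storing enzyme Lrat (1.14), at limma adjusted p = 0.0132, 0.0357 and 0.0242. None passed with the set as a term, and their calls ended without 1 library, at adjusted p up to 0.0520 for Col1a2 and 0.114 for Col3a1 (KO on CD replicate 1) and 0.0782 for Lrat (KO on CD replicate 3). The sum of that list was 272 to 425 FPKM in KO on WD and 241 to 328 FPKM in KO on CD, with Timp1 and Mmp2 at 0 in all 7 libraries. Of 3 tested cholangiocyte markers 1 rose, Krt23, a keratin (adjusted p = 0.0160, and 0.0520 and 0.0568 without KO on CD replicates 1 and 3). Of 19 tested hepatocyte markers 1 rose, the fibrinogen chain Fgg, and 1 fell, the thyroid hormone carrier Ttr, and both calls ended when KO on CD replicate 3 (adjusted p = 0.152 and 0.123) or any of several other libraries was left out. The summed hepatocyte markers were 13275 to 17626 FPKM in KO on WD and 19905 to 22105 FPKM in KO on CD, without overlap. The FPKM total of all genes did not overlap either, at 443818 to 472154 in KO on WD and 497445 to 513500 in KO on CD. The lower sum is thus not particular to hepatocyte markers. The part of cell composition in the results above was not tested.

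Some genes of cell division and antigen presentation rose. Of 17 tested replication and mitosis genes 6 rose and 0 fell on groups alone, where 3.83% of all genes rose. The list median was 0.76, and 16 members had a log2 fold change above 0. With quantile normalization and median centring 2 and 3 rose. Ccnb2, a mitotic cyclin, measured 1.81, 2.15, 2.60 and 1.18 FPKM in KO on WD, and in KO on CD 0.468 and 0.277 FPKM with replicate 3 listed at 0 (1.23, limma adjusted p = 0.0149, and 0.0557 with the set). Without KO on CD replicate 3 its adjusted p was 0.0581. Outside KO on WD, Ccnb2 was under 1 FPKM in every library, so KO on WD alone brought it through the filter. A gene admitted in this way comes out higher in KO on WD, so the filter in part sets the counts of this list. The replication clamp Pcna and the topoisomerase Top2a rose by 1.05 and 1.11 (adjusted p = 0.0237 and 0.0376, and 0.226 and 0.222 with the set). Their calls ended without KO on CD replicates 1 and 3 and KO on WD replicates 2 and 4, at adjusted p up to 0.0897 and 0.112. Of 9 tested antigen presentation genes 2 rose and 9 had a log2 fold change above 0 (8 with quantile normalization or median centring), and of 25 tested interferon response genes 3 rose and 0 fell, none of them with the set as a term. H2-D1, an MHC class I heavy chain, averaged 248 ± 18.7 FPKM in KO on WD and 120 ± 19.1 FPKM in KO on CD (1.04, adjusted p = 0.0278). The chemokine gene Cxcl10 and the ubiquitin-like Isg15 rose by 1.45 and 1.18 (adjusted p = 0.0268 and 0.0309). Leaving out KO on CD replicate 1 ended the calls of H2-D1, Cxcl10 and Isg15 (adjusted p = 0.0853, 0.0878 and 0.102), as did KO on WD replicate 2 (0.0745, 0.0767 and 0.0672). Of 11 tested p53 response genes 1 rose, the kinase Plk2 (0.92, adjusted p = 0.0370, and up to 0.107 when 1 library is left out). Of 22 tested acute phase genes and of 15 tested clock genes none passed.

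**Figure D4:**
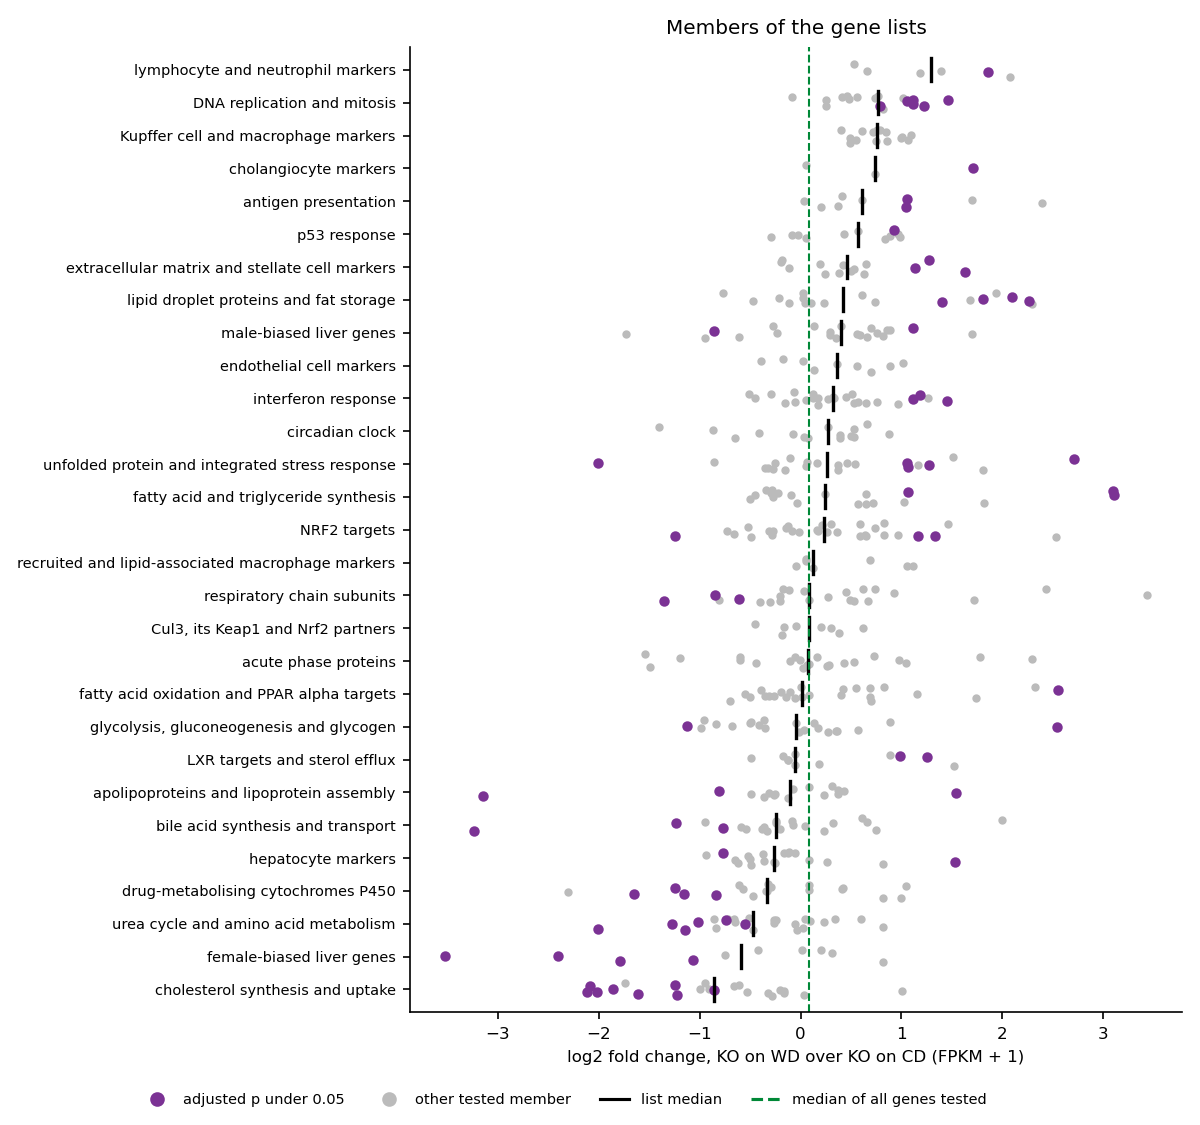
Log2 fold change on groups alone, KO on WD over KO on CD, of every tested member of 29 gene lists, 1 row a list ordered by its median (black bar), with genes at an adjusted p under 0.05 in purple. The green line is the median of all 10870 genes at 0.09, and cholesterol synthesis genes lie lowest with a median of -0.85.

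To see where the diet effect itself differed, the change in KO livers was set against that in WT livers. In WT livers 141 genes passed between WT on WD and WT on CD (1.30%). The KO and WT comparisons shared 31 calls in the same direction, which is 4.47% of the KO calls and 22.0% of the WT calls, and 3 in opposite directions. Apom, Slco1a4, Gnmt and Cyp51 were also called in WT livers, with log2 fold changes of -3.21, -2.71, -2.34 and -2.29, and their diet effects did not differ by the test between the genotypes (limma adjusted p = 0.920, 0.391, 0.577 and 0.748). Msmo1, Slc13a2, Got1, Cyp3a41a and Asns also fell in WT livers, and Scd1 and Serpina12 rose. Their diet effects did not differ by the test either (limma adjusted p of 0.378 to 0.765). In WT livers the median was -0.98 for the cholesterol list and -0.545 for the urea cycle and amino acid list. The difference of the 2 diet effects passed for 37 genes on groups alone (0.34%) and for 2 with the library set as a term (0.0184%). All WT on CD libraries are of set 1 and all KO on CD libraries of set 2, so genotype and set cannot be told apart on that diet.

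The 2 genes that passed in both fits are unnamed gene models. Gm4963 (chr5:137993047-137993424, minus strand) measured 5.38, 6.67, 5.26 and 7.06 FPKM in KO on WD and was listed at 0 in all KO on CD libraries. It measured 2.17, 2.45, 4.63 and 3.04 FPKM in WT on WD, against 4.93, 6.70 and 3.97 FPKM in WT on CD (difference of diet effects, limma adjusted p = 0.000558, and 0.0163 with the set). 9030619P08Rik, named since it is 1 of 2, averaged 35.0 ± 5.32 FPKM in KO on WD and 64.9 ± 6.44 FPKM in KO on CD, while it averaged 33.7 ± 6.95 FPKM in WT on WD and 11.4 ± 1.56 FPKM in WT on CD (SD, n = 4 and 3). Its diet effects ran in opposite directions and differed by -2.36 on the log2 scale (adjusted p = 0.00216, and 0.0163 with the set). On groups alone both genes kept the call of the difference without any 1 of the 14 libraries.

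**Figure D5:**
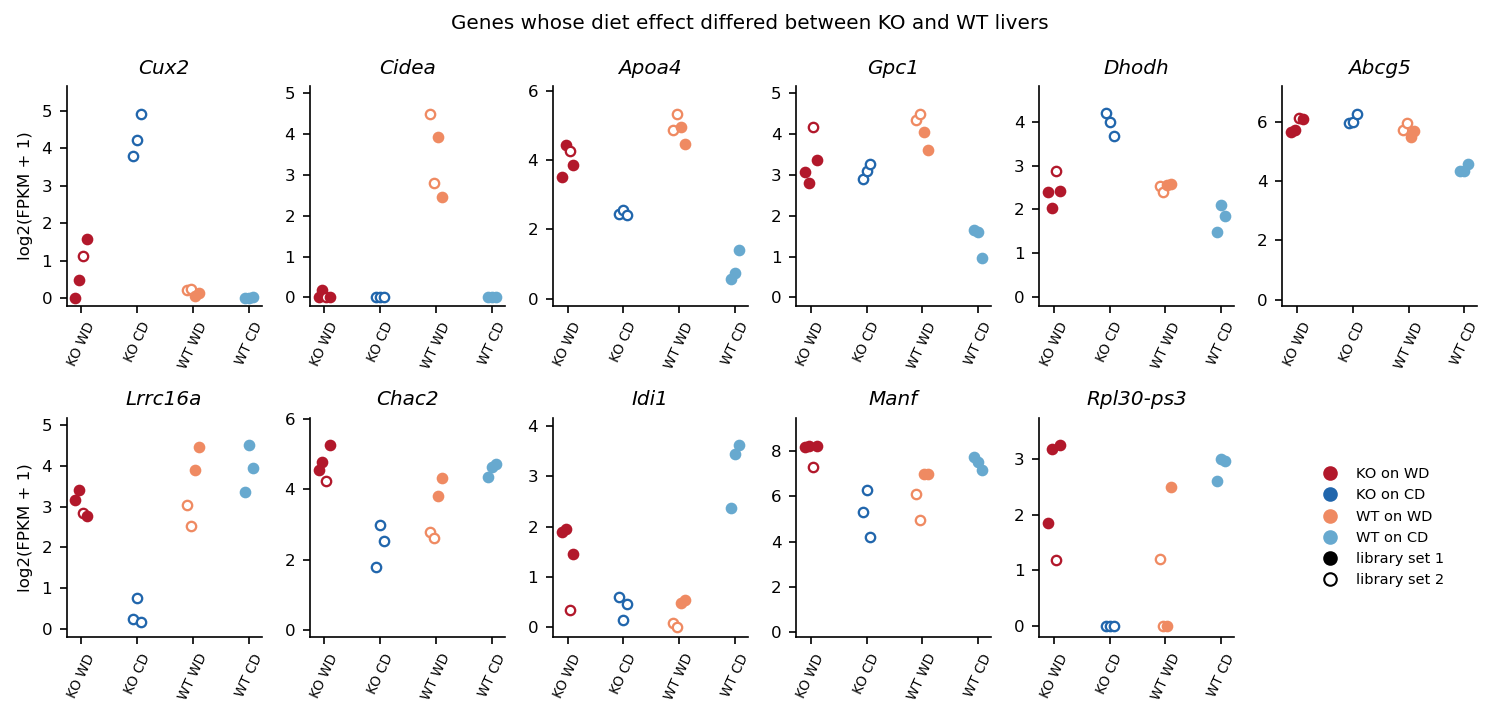
Level, as log2(FPKM + 1), in each library of 11 genes whose diet effect differed between KO and WT livers on groups alone, with KO on WD, KO on CD, WT on WD and WT on CD from left to right and open circles for library set 2. Cidea exceeds 0.124 FPKM in WT on WD only, and Cux2 exceeds 1.98 FPKM in KO on CD only.

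Several lipid genes differed on groups alone. Cidea, a droplet protein that fatty livers switch on, was listed at 0 in KO on WD replicates 1, 3 and 4 and measured 0.124 FPKM in replicate 2, and was listed at 0 in all KO on CD libraries. In WT livers it measured 21.7, 5.96, 14.2 and 4.47 FPKM on the Western diet and was listed at 0 in all 3 on the control diet (difference of diet effects, limma adjusted p = 0.0241, and 0.527 with the set). Apoa4 rose in both genotypes, by 1.54 in KO and by 4.0 in WT livers. Its WT levels were 29.6 ± 7.60 FPKM on WD and 0.931 ± 0.620 FPKM on CD (SD, n = 4 and 3; difference -2.46, adjusted p = 0.0241). Abcg5 rose by 1.30 in WT livers, to 52.3 ± 7.75 FPKM on WD, against 20.5 ± 2.11 FPKM on CD, while in KO livers it was 50.4 to 76.9 FPKM over both diets (difference -1.48, adjusted p = 0.0241). Gpc1, a cell-surface proteoglycan, had a diet effect of 0.27 in KO and 2.72 in WT livers (difference -2.45, adjusted p = 0.0360). Idi1, the isomerase of cholesterol synthesis, differed the other way, at 2.69, 2.88, 0.256 and 1.72 FPKM in KO on WD, against 0.513, 0.0981 and 0.380 FPKM in KO on CD. In WT livers Idi1 averaged 0.228 ± 0.235 FPKM on WD and 8.49 ± 3.81 FPKM on CD (difference 3.88, adjusted p = 0.0123). Leaving out WT on CD replicate 3 ended the difference for Cidea, Apoa4, Gpc1 and Idi1 (adjusted p = 0.0823, 0.0823, 0.0981 and 0.0671), and other libraries did so for Cidea, Apoa4 and Gpc1. That of Abcg5 ended without each of 7 libraries (up to 0.10, without WT on CD replicate 3).

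Of the genes described above, Oxct1, Gadd45a, Tinag, Rbpms, Cux2 and Pptc7 also had diet effects that differed between genotypes on groups alone (limma adjusted p of 0.00983 to 0.0475). The difference for Cux2 kept its call without any 1 library, while those of Oxct1, Gadd45a, Tinag, Rbpms and Pptc7 ended without 6 to 10 single libraries each (adjusted p up to 0.122, for Oxct1 without WT on CD replicate 3). Cux2 was at most 0.178 FPKM in every WT library of either diet. Tinag was at most 0.314 FPKM in every WT library. Dhodh, the pyrimidine synthesis enzyme of mitochondria, averaged 4.52 ± 1.36 FPKM in KO on WD and 14.7 ± 2.75 FPKM in KO on CD, and 4.74 ± 0.331 FPKM in WT on WD and 2.56 ± 0.742 FPKM in WT on CD (SD, n = 4 and 3; difference -2.23, adjusted p = 0.0123, a call kept without any 1 library). Manf, Chac2 and Lrrc16a had differences of 3.91, 3.45 and 3.12, and the pseudogene Rpl30-ps3, whose reads cannot be told apart from those of its parent gene with certainty, was listed at 0 in KO on CD and differed too (adjusted p of 0.0241 to 0.0476). Each of these 4 calls ended without at least 8 single libraries (adjusted p up to 0.134, for Rpl30-ps3 without WT on CD replicate 3). With the set as a term the adjusted p of the named genes of this and the preceding paragraph ran from 0.289 (Rbpms and Pptc7) to 0.805 (Rpl30-ps3).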

How the data were processed

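Liver RNA of 14 libraries was sequenced from the 3' end (QuantSeq 3' FWD, NovaSeq, per the labels' protocols). The authors deposited 1 table of FPKM values for 43548 genes, made with Cufflinks on mm10 per the submitters' processing notes; the sources used here do not give versions, aligner, annotation release or the handling of multi-mapping reads. Groups come from the labels. The members and gene lists were chosen with earlier results of these data known.

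The 10870 genes that reached 1 FPKM in 3 or more libraries were tested on log2(FPKM + 1), which understates changes of low genes, with limma 3.58.1 in R 4.3.3 (intensity trend, 1 mean for each of the 4 groups, 14 libraries, 10 residual degrees of freedom). A gene can pass this filter through the libraries of 1 group alone and then tends to come out higher in that group. This touches the counts and signs of lists with many low genes. P-values were adjusted by Benjamini-Hochberg over all genes tested and called under 0.05. Every adjusted p is limma's. A second fit added the library set, read from the shared ratios of low values, and sets read from the placeholder were added after seeing the data. The placeholder row (Yam1) was left out. The test was tried on simulated data.

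Named genes are first the 8 largest rises and the 8 largest falls called in both fits. They had at least 5 FPKM on average in the higher group and no overlap, leaving out unnamed gene models (Gm numbers, Rik clones, accessions). Added to them are the other genes called in both fits and up to 4 tested members a list with the smallest p, called or not. So are 5 genes in each direction of the difference of diet effects and a panel of 24 genes. Further list members are named after their values were seen, and not every uncalled member is described above. A few of these genes are not reported here, though they remain in the fits and the counts of the lists. Gene coordinates are from GENCODE M21 by gene ID (42383 of 43548 matched), and promoters from RefSeq on GRCm38.p6. Of 595 list entries 593 matched the table. Python 3.11.15 with pandas 2.3.3 and scipy 1.17.1 served for tables. Alternatives were a pseudocount of 0.1, other filters, quantile normalization, median centring, KO libraries alone, set 2 alone, no trend, the replicate number as a block and each library left out. Single libraries were left out of the fit on groups alone only. Depth is unknown, so no counting intervals are given.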

Additional observations from a re-analysis of the deposited data

Results flagged for a closer look

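In 10 of 155 genes examined, 1 of the 4 KO on WD libraries stood apart from the other 3, where chance gives about 1 in 20. KO on WD replicate 3 was the one for Manf (157.1 FPKM, the lowest), Amacr (27.72, the lowest) and Cidec (15.02, the highest). KO on WD replicate 2 was the one for Ptprc (18.42 FPKM, the highest), Pltp (60.32, the highest) and Cidea (0.1238, where the other 3 were listed at 0). KO on WD replicate 4 stood apart for Cyp17a1 (12.29 FPKM, the highest), Plin3 (58.2, the highest) and Stab2 (7.879, the highest), and KO on WD replicate 1 for Cyp8b1 (283 FPKM, the highest). For Manf the library that stood apart is the only KO on WD library of set 2.

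The diet effect in KO livers differed from that in WT livers, by limma's interaction test, in 17 of the named genes on groups alone. The differences (KO minus WT, log2) were positive for Rpl30-ps3 (4.307), Manf (3.911), Idi1 (3.877), Chac2 (3.452), Gm4963 (3.436), Lrrc16a (3.119), Rbpms (2.719), Gadd45a (2.686), Oxct1 (2.294) and Tinag (1.965). They were negative for Cux2 (-3.670), Cidea (-3.379), Apoa4 (-2.457), Gpc1 (-2.454), Dhodh (-2.233), Abcg5 (-1.478) and Pptc7 (-1.338). Gm4963, Rpl30-ps3 and Cidea were listed at 0 in all libraries of a group, so their values depend on the pseudocount and are no bound. Of these, Gm4963 also passed with the library set as a term, and the part of the set in the others was not tested beyond that fit.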

How the results depend on the processing

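None of the 693 called genes, nor of the 37 whose diet effects differed, changed sign under any alternative in which it was tested. For many alternatives this was fixed in advance. In 680 of the 693 the KO groups did not overlap, so leaving out a library or taking set 2 alone could not change the sign. KO libraries alone, other filters, no trend and leaving out a WT library keep the KO log2 fold change as it was. Against 693 called genes (416 higher, 277 lower), the library set as a term gave 38 (14 and 24), sets read from the placeholder, an alternative chosen after seeing the data, 28 (8 and 20), set 2 alone 19 (19 and 0, with 967 genes at an unadjusted p under 0.05), and all genes above 0 in at least 3 libraries 424 (227 higher). Quantile normalization gave 230 higher, median centring 631 lower and KO libraries alone 718 higher. Leaving out 1 library gave 115 to 1765 calls, 49 to 1141 higher and 57 to 624 lower. Against 37 genes whose diet effects differed, the count was 24 with a pseudocount of 0.1, 184 with a minimum of 5 FPKM, 2 with the set as a term, 3 with the placeholder sets, and 4 to 1037 when 1 library was left out. Set 2 alone could not give it, since no WT on CD library is in set 2. The cause of these changes was not tested.

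With the replicate number as a replicate block, 85 genes were called (43 higher, 42 lower) and 4 differed in diet effect. With the block and the set as terms the counts were 15 (5 and 10) and 0 (568 genes at an unadjusted p under 0.05 in limma). Libraries of the same number deviated together with r = 0.05, 0.04 and 0.15, and each KO on CD library correlated best with its own number. These correlations cannot decide whether the libraries were paired, since the library sets also shape the deviations. Of 88 named genes called, 2 were still called with set 2 alone, 14 with the block and the set, 23 with the placeholder sets, 37 with the library set in the fit, 44 with the block, 73 with a pseudocount of 0.1, 73 with quantile normalization, 81 with median centring and 41 to 88 with 1 library left out. Of 29 list medians, 16 moved by more than the spread between libraries with median centring and 7 with the set as a term. FPKM values carry no depth, which limits what can be said of genes near 0.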
